A study of Mus musculus with 24 samples.

Results

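The tissue isoforms of cytochrome c oxidase are 8 nuclear genes, listed here in pairs whose members encode alternative forms of the same subunit. *Cox4i1* (NM_009941) pairs with *Cox4i2* (NM_053091), *Cox6a1* (NM_007748) with *Cox6a2* (NM_009943), *Cox7a2* (NM_009945) with *Cox7a1* (NM_009944), and *Cox8a* (NM_007750) with *Cox8b* (NM_007751). They were taken as all probes, controls aside, whose accession belongs to one of these genes. All 8 genes were found, out of 21368 genes with a named probe, with 1 probe each except *Cox8a*, which had 2, so that 9 probes were read on 24 arrays. All 216 readings were well above background by the scanner software, and 0 were saturated or carried an outlier flag. The brightest reading was an intensity of 591939, for *Cox6a2* in a heart.

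Cytochrome c oxidase, complex IV of the respiratory chain, passes electrons from cytochrome c to oxygen and pumps protons across the inner mitochondrial membrane. Its catalytic core is encoded by mitochondrial DNA, and the nuclear subunits around that core serve assembly, stability and regulation. Several nuclear subunits exist as isoforms. *Cox6a2*, *Cox7a1* and *Cox8b* are known as the heart and muscle type, and *Cox6a1*, *Cox7a2* and *Cox8a* as the liver or ubiquitous type. *Cox4i1* is the general form of subunit 4, and *Cox4i2* an alternative form known from lung and from oxygen-sensing cells.

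RNA came from liver, brain, heart and skeletal muscle of 3 wild-type (WT) and 3 homozygous *Rap1* I312R knockin males (*Rap1* KI/KI, labelled RAP1 MUT, here KI for single mice), with 1 array for each mouse and tissue. The knockin was made with CRISPR/Cas9 and crossed back to C57BL6 mice 4 times. The amino acid change lies in RAP1, the product of *Terf2ip*. WT1 and KI1 were 5 months old, and WT2, WT3, KI2 and KI3 were 2 months old. Whole pieces of tissue were used, so that fewer cells of a type and less RNA per cell cannot be told apart. Liver and brain RNA was isolated with one kit and bead type, and heart and muscle RNA with another, so the kit and the contrast of striated muscle with liver and brain cannot be told apart. The arrays lay on 3 slides. All 6 liver arrays and 2 brain arrays were on slide 1, 4 brain and 4 heart arrays on slide 2, and 2 heart arrays and all 6 muscle arrays on slide 3.

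Signals are given as levels, that is, on a log2 scale on which the 75th percentile of each array is set to 0 and a step of 1 doubles the signal. That percentile ranged from an intensity of 470.7 to 1389 over the 24 arrays, and 56.5% to 72.7% of probes were well above background. The marker lists matched their tissues. The mean level of 8 liver markers was 8.11 to 8.87 in the livers and at most 0.34 elsewhere, that of 10 brain markers 4.13 to 4.50 in the brains and at most 1.85 elsewhere, that of 8 heart markers 4.15 to 6.66 in the hearts and at most -2.13 elsewhere, and that of 8 skeletal muscle markers 7.58 to 7.89 in the muscles and at most -1.59 elsewhere. Genes of other cell types stood out on some arrays. *Ucp1*, the uncoupling protein of brown fat, was at 4.96 and 5.93 in the hearts of KI1 and KI3 and at 3.61 in the muscle of KI2, against at most -0.42 in the other hearts and muscles. *Gfap* and *Gad1*, genes of astrocytes and inhibitory neurons, were at 1.94 and 0.77 in the muscle of KI3. *Terf2ip* itself ranged from 0.69 to 2.07 over all arrays, and its probe cannot show a point mutation, so it checks no label.

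Promoters are shown for the genes of the 2 opposite patterns that the levels below turn on, *Cox7a1* and *Cox8b*, which were high in heart and muscle alone of the 4 tissues, and *Cox6a1* and *Cox8a*, which were lowest in muscle. Each is the 250 bases before the gene start in RefSeq's GRCm38.p6 table, read 5′ to 3′ on the strand of the gene. RefSeq windows were matched by symbol for 5 of the 8 genes. Capitals mark matches, on either strand, to an E-box (CANNTG), an ETS site (CCGGAAG) or an SP1 site (GGGCGG). The MEF2 and NRF1 motifs and the ERR site (TCAAGGTCA) were searched too and had no full match in these windows, and no marked matches overlapped. The *Cox6a1* window does hold GCGCATGCGC, which matches the searched NRF1 motif between its end bases. The full motif does not allow the base before that run, so it was not counted or marked.
*Cox7a1*, chr7:30183921-30184170, plus strand: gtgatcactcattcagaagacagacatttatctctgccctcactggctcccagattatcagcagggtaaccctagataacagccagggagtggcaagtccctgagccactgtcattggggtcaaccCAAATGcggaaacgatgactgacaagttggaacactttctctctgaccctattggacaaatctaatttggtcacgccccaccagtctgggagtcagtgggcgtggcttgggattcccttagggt
*Cox8b*, chr7:140900447-140900696, minus strand: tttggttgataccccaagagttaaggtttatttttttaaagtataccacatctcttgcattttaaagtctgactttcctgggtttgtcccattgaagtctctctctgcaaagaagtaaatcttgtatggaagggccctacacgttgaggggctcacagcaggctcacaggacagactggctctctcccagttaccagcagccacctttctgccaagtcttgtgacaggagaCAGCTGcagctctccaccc
*Cox6a1*, chr5:115348959-115349208, minus strand: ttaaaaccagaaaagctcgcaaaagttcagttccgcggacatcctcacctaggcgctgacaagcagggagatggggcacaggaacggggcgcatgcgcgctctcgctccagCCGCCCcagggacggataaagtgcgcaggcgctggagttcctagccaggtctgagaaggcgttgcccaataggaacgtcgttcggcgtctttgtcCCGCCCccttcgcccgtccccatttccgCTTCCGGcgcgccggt
*Cox8a*, chr19:7217617-7217866, minus strand: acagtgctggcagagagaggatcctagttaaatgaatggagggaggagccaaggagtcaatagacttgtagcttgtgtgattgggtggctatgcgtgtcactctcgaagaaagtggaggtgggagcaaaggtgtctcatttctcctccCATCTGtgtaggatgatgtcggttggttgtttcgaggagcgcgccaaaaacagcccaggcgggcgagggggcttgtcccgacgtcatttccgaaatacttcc

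The window of *Cox7a1* held 1 E-box, starting 124 bases before the gene start, and that of *Cox8b* held 1, starting 19 bases before it. The *Cox6a1* window held 2 SP1 sites and 1 ETS site and no E-box, and the *Cox8a* window 1 E-box. An E-box is a common match, present in 66.2% of the 32841 windows of the same length in the table, an SP1 site in 32.7% and an ETS site in 6.91%. The GC content was 62.8% for *Cox6a1*, 52.8% for *Cox8a*, 51.2% for *Cox7a1* and 47.2% for *Cox8b*, against a median of 52.4% over all windows.

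The heart and muscle isoforms were near their highest levels in both striated tissues and far lower in liver and brain, with no overlap between the striated and the other arrays. *Cox6a2*, the heart and muscle form of subunit 6a, had levels of -2.85 to -2.08 in liver (median -2.35), 1.89 to 2.66 in brain (2.26), 8.97 to 10.02 in heart (9.27) and 9.20 to 9.66 in muscle (9.44). *Cox7a1*, its counterpart for subunit 7a, ran from 1.17 to 2.25 in liver (1.76), from 0.91 to 1.76 in brain (1.22), from 8.79 to 9.76 in heart (9.14) and from 8.51 to 9.31 in muscle (8.87). *Cox8b*, the muscle form of subunit 8, was at -5.23 to -3.07 in liver (-4.46), -1.77 to 0.37 in brain (-0.996), 8.12 to 8.95 in heart (8.42) and 8.66 to 8.998 in muscle (8.87). Liver and brain did not overlap for *Cox6a2* and *Cox8b*, which were lowest in liver on all 6 of its arrays, while they overlapped for *Cox7a1*.

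**Figure D1:**
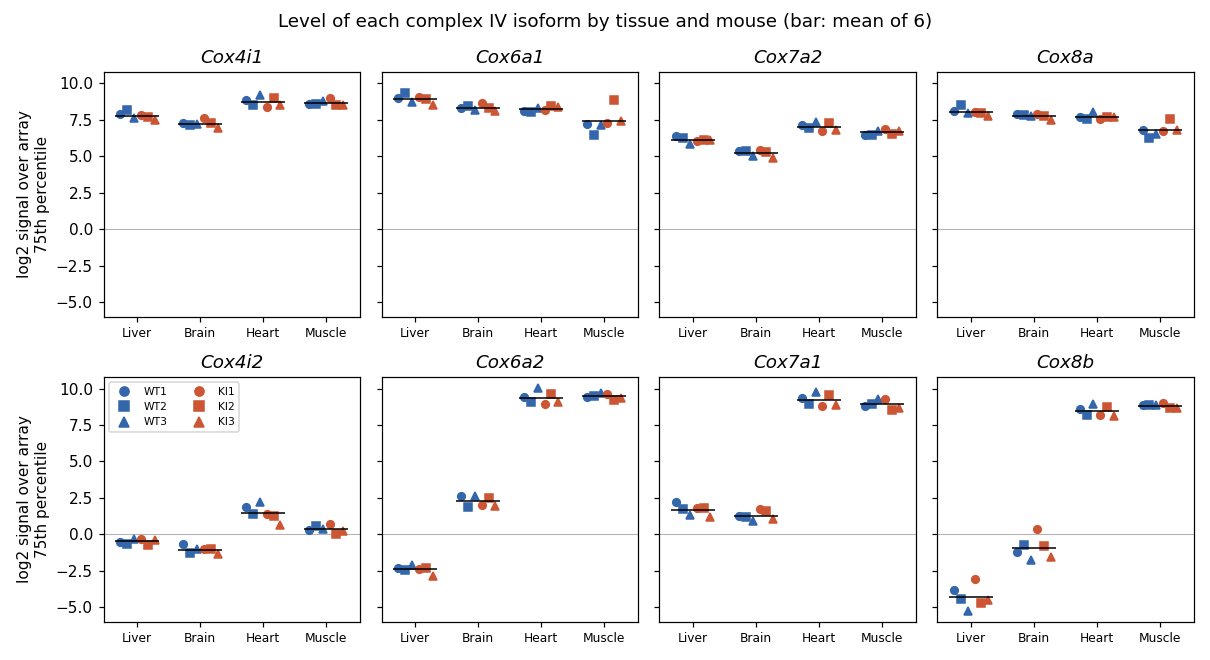
Levels of the 8 genes on all 24 arrays (y axis, log2 signal over the 75th percentile of the array; x axis, tissue), with 1 point per mouse, blue for WT and orange for Rap1 KI/KI, and a bar at the mean of 6. *Cox6a2*, *Cox7a1* and *Cox8b* lie above 8 in heart and muscle and below 2.7 in liver and brain, and *Cox6a1* and *Cox8a* are lowest in muscle, where KI2 lies above the other mice.

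In limma over all 24 arrays, *Cox6a2* was higher in heart than in liver by 11.77 on the log2 scale (SE 0.19, adjusted p = 7.26e-20) and in muscle by 11.85 (SE 0.19). The differences of *Cox7a1* were 7.53 (SE 0.22, adjusted p = 1.79e-16) and 7.22 (SE 0.22), and those of *Cox8b* 12.76 (SE 0.33, adjusted p = 3.21e-17) and 13.12 (SE 0.33). Few probes moved as far. Of the 42463 probes tested, 0.13% rose as much as *Cox6a2* from liver to heart, 0.742% as much as *Cox7a1* and 0.0777% as much as *Cox8b*. The signal of *Cox8b* in liver was dim, with intensities of 26.7 to 113.8. With normexp correction its differences from liver were 11.54 in heart and 11.82 in muscle. Between muscle and heart none of the 3 genes passed, with differences of 0.08 (95% confidence interval -0.32 to 0.48) for *Cox6a2*, -0.31 (-0.76 to 0.15) for *Cox7a1* and 0.36 (-0.33 to 1.04) for *Cox8b*. The difference for *Cox6a2* was negative with quantile normalization (-0.51, adjusted p = 0.0102), and that of *Cox7a1* then passed too (-0.80, adjusted p = 0.000423).

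The brain was not like the liver for these genes. *Cox6a2* was higher in brain than in liver by 4.67 (SE 0.19, 25.4-fold, limma adjusted p = 2.41e-14), and *Cox8b* by 3.35 (SE 0.33, 10.2-fold, adjusted p = 1.45e-08), each in all 6 mice. With normexp correction the difference of *Cox8b* was 2.26. *Cox7a1* differed by -0.39 (SE 0.22, adjusted p = 0.102). *Cox6a2* is known outside muscle from parvalbumin interneurons, and *Pvalb*, the gene that marks these cells, ranged from 2.79 to 5.57 in brain and from -1.43 to -0.81 in liver. *Pvalb* is also 1 of the 8 skeletal muscle markers used here. In brain against liver 6 of these 8 were called higher and 2 lower (33.4% and 45.6% of all probes), so a higher *Pvalb* is not particular to interneuron genes. The part of parvalbumin interneurons in the level of *Cox6a2* was not tested. The range of *Cox8b* in brain ended at 0.37 in KI1, and the other 5 brains were at or below -0.70. Within slide 1, which held all livers and the brains of WT1 and KI1, the difference was 4.72 for *Cox6a2* and 3.86 for *Cox8b*.

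The ubiquitous partners went different ways. *Cox6a1*, the general form of subunit 6a, had levels of 8.54 to 9.35 in liver (median 8.93), 8.08 to 8.63 in brain (8.32), 8.01 to 8.45 in heart (8.25) and 6.44 to 8.86 in muscle (7.23). *Cox8a*, the general form of subunit 8, followed the same order, with 7.76 to 8.48 in liver (8.02), 7.47 to 7.92 in brain (7.78), 7.52 to 8.04 in heart (7.68) and 6.27 to 7.56 in muscle (6.75). Both were lowest in muscle, and brain and heart overlapped for both. From liver to muscle *Cox6a1* fell by 1.53 (SE 0.23, 2.88-fold, limma adjusted p = 7.3e-06) and *Cox8a* fell by 1.27 (SE 0.16, 2.42-fold, adjusted p = 6.83e-07), in all 6 mice. From heart to muscle the differences were -0.85 and -0.91, in 5 and 6 of 6 mice, with adjusted p of 0.00525 and 0.000105. Both calls were lost with KI arrays only (-0.479 and -0.605, limma adjusted p = 0.384 and 0.0904), and that of *Cox6a1* also without the hearts of KI1 and KI3 and the muscle of KI3 (-0.806, adjusted p = 0.0501).

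A second *Cox8a* probe had the same tissue order and larger steps, with -2.32 from liver to muscle (SE 0.13) and -0.88 from liver to heart (SE 0.13, adjusted p = 8.81e-06). The first *Cox8a* probe, which has the higher mean level and stands for the gene here, differed by -0.36 from liver to heart and just missed the threshold (SE 0.16, adjusted p = 0.0513). From liver to brain the first probe differed by -0.29 (SE 0.16, adjusted p = 0.0973) and the second by -0.68 (SE 0.13, adjusted p = 0.000123). The probes of *Cox8a* thus disagreed on size and on some calls but not on sign, and their levels had a Pearson r of 0.95 over the 24 arrays.

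*Cox4i1* and *Cox7a2*, the other general forms, did not fall in striated muscle. *Cox7a2* ran from 5.84 to 6.38 in liver (median 6.10), from 4.86 to 5.40 in brain (5.32), from 6.74 to 7.33 in heart (7.02) and from 6.44 to 6.90 in muscle (6.63). It was higher in heart than in liver by 0.91 (SE 0.15, limma adjusted p = 1.77e-05) and in muscle by 0.51 (SE 0.15, adjusted p = 0.00431), with no overlap. The call in muscle was lost with the slide as a block (0.725, adjusted p = 0.106) and with WT arrays only (0.383, adjusted p = 0.17). *Cox4i1* ran from 7.45 to 8.16 in liver (7.75), from 6.94 to 7.61 in brain (7.23), from 8.37 to 9.17 in heart (8.68) and from 8.53 to 8.96 in muscle (8.56). Its difference from liver was 0.97 in heart and 0.89 in muscle (SE 0.16 each, adjusted p = 3.32e-05 and 7.73e-05).

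*Cox4i2* had a narrow range next to the other alternative isoforms. Its levels were -0.70 to -0.31 in liver (median -0.44), -1.32 to -0.66 in brain (-1.01), 0.64 to 2.22 in heart (1.40) and 0.02 to 0.74 in muscle (0.33). Heart was the highest tissue, 1.95 above liver (SE 0.18, 3.86-fold, limma adjusted p = 1.05e-08), 2.52 above brain (SE 0.18) and muscle differed from it by -1.10 (SE 0.18, adjusted p = 5.29e-05), although heart and muscle overlapped. Markers of pericytes and smooth muscle, cells in which *Cox4i2* is known to be expressed, were by their mean also highest in heart and next in muscle. In brain against liver 6 of the 10 were called higher and 3 lower (33.4% and 45.6% of all probes). *Cox4i2* was lower in brain than in liver (-0.57, limma adjusted p = 0.00746). That call was lost with the slide as a block (-0.34, adjusted p = 0.243), with WT arrays only (-0.483, adjusted p = 0.119) and with the authors' series table (adjusted p = 0.107). The mean level of the 10 mural markers was 3.28 to 4.24 in the hearts, 2.56 to 2.96 in the muscles, -0.14 to 0.48 in the brains and -1.24 to -0.09 in the livers. All 10 were well above background on every array, and their part in the level of *Cox4i2* was not tested.

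Counted over the 8 genes, 6 were higher and 1 lower in heart than in liver, where 32.3% of all tested probes were called higher and 34.4% lower. In muscle against liver 6 were higher and 2 lower (36.3% and 34.9% of all probes). In heart against brain 6 were higher and 0 lower (39.9% and 27.7%), with *Cox6a1* and *Cox8a* not called, and in muscle against brain 6 were higher and 2 lower (41.4% and 28.7%). In brain against liver 2 were higher and 4 lower (33.4% and 45.6%). In muscle against heart 0 were higher and 4 lower, namely *Cox4i2*, *Cox6a1*, *Cox7a2* and *Cox8a* (22.4% and 21%). The call of *Cox7a2* there was lost without the muscle of KI2 (-0.357, limma adjusted p = 0.0749) and without any one of WT1, WT2 or KI2 (adjusted p 0.0722 to 0.227). That of *Cox6a1* between heart and liver was lost with the slide as a block (-0.503, adjusted p = 0.386) and without WT2 or KI1 (adjusted p = 0.0712 and 0.0546). Between muscle and brain the call of *Cox6a1* was lost with the slide as a block (-1.028, limma adjusted p = 0.0592) and with KI arrays only (-0.483, adjusted p = 0.289). The contrasts share arrays, so that these counts are not independent of each other.

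The scaling changed several directions. The median difference of all tested probes between brain and liver was -0.35 here and -0.18 after quantile normalization, and the 4 general isoforms moved more. With quantile normalization *Cox4i1*, *Cox7a2* and *Cox8a* were higher in brain than in liver by 0.72, 0.36 and 0.84 (limma adjusted p = 1.89e-06, 0.00244 and 1.47e-05), where the differences are -0.53, -0.90 and -0.29 under the scaling used here. *Cox6a1* turned from -0.60 to 0.14 (adjusted p = 0.512). The direction of these 4 genes between brain and liver is therefore not settled, and with the slide as a block only 3 of the 8 genes were called between brain and liver. Quantile normalization also put *Cox6a1* and *Cox8a* lower in heart than in brain, with differences of -0.96 and -1.07 (adjusted p = 0.000197 and 8.89e-07), and left *Cox4i1* at -0.02 between muscle and brain in place of 1.42 (adjusted p = 0.887). The directions of all 8 genes between heart and liver and between muscle and liver were the same under both scalings.

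Each gene was also set against its partner on the same array, which removes a factor that all probes of an array share but not a normalization that acts unequally on dim and bright probes, as quantile normalization does. The probes of a pair differ in sequence, so the sign of such a log ratio says nothing of which transcript is more abundant, and only its shift between tissues was read. Log2(*Cox6a2*/*Cox6a1*) was -11.76 to -10.83 in liver (median -11.35), -6.64 to -5.54 in brain (-5.95), 0.72 to 1.68 in heart (1.13) and 0.34 to 3.02 in muscle (2.30). Log2(*Cox8b*/*Cox8a*) was -13.17 to -11.11 in liver (-12.48), -9.54 to -7.52 in brain (-8.75), 0.42 to 1.06 in heart (0.80) and 1.10 to 2.57 in muscle (2.20). Both ratios stepped up from liver to brain and again to the striated tissues. Log2(*Cox7a1*/*Cox7a2*) had nearly a single step, from -4.92 to -4.13 in liver (-4.40) and -4.16 to -3.65 in brain (-3.96) to 2.02 to 2.43 in heart (2.17) and 1.91 to 2.52 in muscle (2.40).

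**Figure D2:**
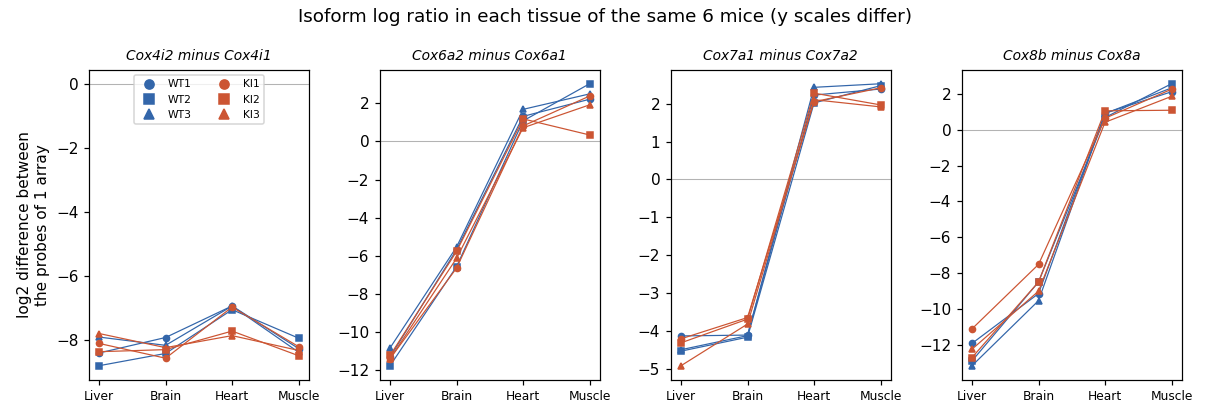
Log2 ratio of each isoform pair (y axis, log2 difference between the probes of 1 array, with its own scale in each panel) in the 4 tissues (x axis), with 1 line per mouse, blue for WT and orange for Rap1 KI/KI. The lines of *Cox6a2*/*Cox6a1* and *Cox8b*/*Cox8a* rise in steps, those of *Cox7a1*/*Cox7a2* in 1 step, and those of *Cox4i2*/*Cox4i1* stay between -8.82 and -6.95.

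Averaged over heart and muscle and set against liver and brain, the shift was 10.28 ± 0.64 (SD, n = 6 mice) for *Cox6a2*/*Cox6a1*, 6.41 ± 0.25 for *Cox7a1*/*Cox7a2* and 11.94 ± 0.74 for *Cox8b*/*Cox8a*. Each had an exact permutation p of 4.29e-05, the smallest that 46656 relabellings of tissues within mice can give (two-sided, 5.72e-05 after adjustment over the 4 pairs). The shift of *Cox4i2*/*Cox4i1* was 0.49 ± 0.42 (SD, n = 6, exact p = 0.037, adjusted p = 0.037). It was lost with normexp background correction (0.35, exact p = 0.0836) and without any one of WT1, WT2, KI1 or KI2 (0.37 to 0.55, exact p 0.0527 to 0.143). By tissue, the ratio in heart was 1.02 ± 0.38 above that in muscle (SD, n = 6, adjusted exact p = 0.0417) and 1.02 ± 0.47 above that in brain, while muscle and brain differed by 0.00 ± 0.34. Quantile normalization gave other steps for this pair, with 1.53 ± 0.38 from brain to muscle and 2.10 ± 0.41 from brain to heart (adjusted exact p = 0.0441 each), -1.43 ± 0.33 from liver to brain, and -0.57 ± 0.50 from heart to muscle (adjusted exact p = 0.0682), and an averaged striated shift of 1.10.

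Of 24 shifts of a ratio between single tissues, 18 passed at an adjusted exact p of 0.0417, and each of these ran one way in all 6 mice. Sign flips over 6 mice cannot give an exact p below 0.0312. From liver to brain the shift was 5.26 ± 0.30 for *Cox6a2*/*Cox6a1*, 3.65 ± 0.60 for *Cox8b*/*Cox8a* and 0.51 ± 0.36 for *Cox7a1*/*Cox7a2* (SD, n = 6). With quantile normalization, under which 17 of the 24 passed, the last of these was -0.40 ± 0.41 (adjusted exact p = 0.0682), so that its direction is not settled, and that of *Cox8b*/*Cox8a* was 2.25 ± 0.57. From heart to muscle *Cox8b*/*Cox8a* rose by 1.27 ± 0.65 in all 6 mice, though by only 0.03 in the mouse with the smallest shift, and this was lost with quantile normalization (0.84, adjusted exact p = 0.0682) and with normexp correction (1.26, adjusted exact p = 0.075). For the same step *Cox6a2*/*Cox6a1* differed by 0.93 ± 0.97, in 5 of 6 mice (exact p = 0.0938, adjusted p = 0.112), and *Cox7a1*/*Cox7a2* by 0.10 ± 0.30 (adjusted p = 0.536).

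A second reference, chosen after the levels were seen, was the median of 6 complex IV subunits that have no tissue form among these genes (*Cox5a*, *Cox5b*, *Cox6b1*, *Cox6c*, *Cox7b* and *Cox7c*). That median was itself higher in heart (7.74 to 8.33) and muscle (7.63 to 8.15) than in liver (6.66 to 7.01) and brain (5.67 to 6.27). Against it, the ubiquitous partners split by size. From liver to heart *Cox6a1* shifted by -1.88 ± 0.33 and *Cox8a* by -1.56 ± 0.24, and from liver to muscle by -2.51 ± 0.99 and -2.25 ± 0.65 (SD, n = 6, adjusted exact p = 0.0455 each). *Cox7a2* shifted by -0.29 ± 0.12 and -0.47 ± 0.10 (adjusted exact p = 0.0455 each), and *Cox4i1* by -0.23 ± 0.17 in heart (adjusted exact p = 0.0455) and by -0.09 ± 0.18 in muscle (adjusted exact p = 0.293). From liver to muscle *Cox6a1*, *Cox8a* and *Cox7a2* all fell behind the common subunits in all 6 mice, *Cox7a2* by less. With quantile normalization *Cox4i1* did so too (-0.40 ± 0.09, adjusted exact p = 0.0395), and with normexp correction its shift in heart did not pass (-0.20 ± 0.23, adjusted exact p = 0.075).

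**Figure D3:**
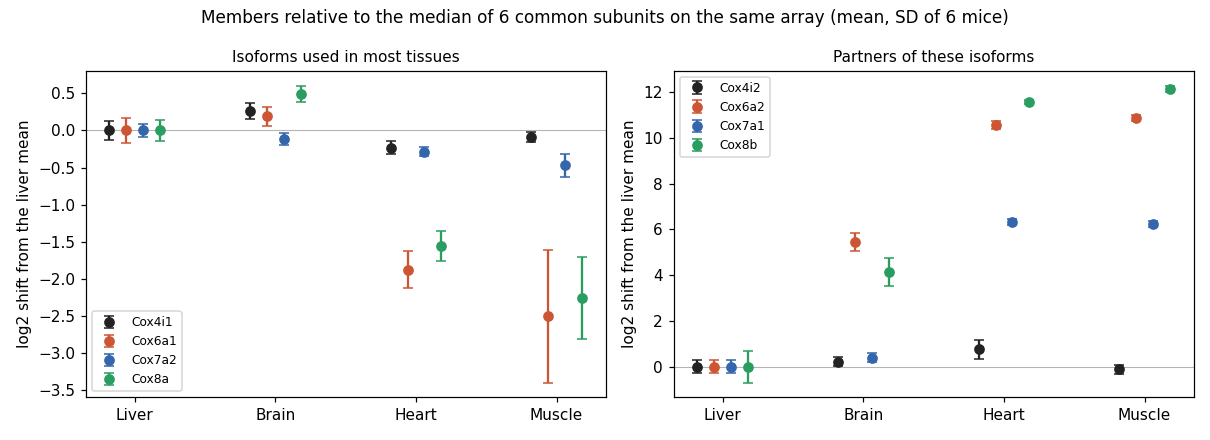
Level of each gene minus the median of 6 common complex IV subunits on the same array, as the shift of its mean from the liver mean (y axis, log2; points are means, bars the SD of the 6 mice within the tissue) by tissue (x axis), with the general isoforms on the left and their partners on the right. In heart and muscle *Cox6a1* and *Cox8a* lie between -2.51 and -1.56, *Cox4i1* and *Cox7a2* between -0.47 and -0.09, and *Cox6a2*, *Cox7a1* and *Cox8b* between 6.24 and 12.14.

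In brain the shifts by this measure were small for the general forms. *Cox8a* was 0.49 ± 0.18 above its liver level and *Cox6a1* 0.19 ± 0.19 above it (SD, n = 6, adjusted exact p = 0.0455 each), and *Cox7a2* differed by -0.12 ± 0.09 (adjusted exact p = 0.075). Quantile normalization turned *Cox6a1* to -0.45 ± 0.17 and left *Cox8a* at 0.25 ± 0.20 and *Cox7a2* at -0.22 ± 0.10 (adjusted exact p = 0.0395 each). *Cox6a2* and *Cox8b* kept their steps, with 5.45 ± 0.36 and 4.14 ± 0.45 from liver to brain. In all, 33 of 48 such shifts passed at an adjusted exact p of 0.0455.

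*Cox6a1* and *Cox8a* also resembled each other across arrays more than they resembled any other gene. Among 18310 other genes that passed the filter, the one most like *Cox6a1* was *Cox8a* and the reverse, with a Pearson r of 0.95 over 24 arrays from 4 tissues of 6 mice. It was 0.88 over the 18 arrays of liver, brain and heart, and 0.97 without the muscle of KI2. The next genes were *Fabp5* (0.90) and *Galk2* (0.88) for *Cox6a1*, and *Casp9* (0.94) and *Miga2* (0.93) for *Cox8a*. *Cox4i1* and *Cox7a2* were most like subunits of complex I and of ATP synthase, *Ndufb10* (0.99), *Atp5md* (0.98) and *Ndufb7* (0.98) for *Cox4i1*, and *Ndufv3*, *Ndufv1* and *Ndufa1* (0.98 each) for *Cox7a2*.

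The genes most like *Cox6a2* were *Tpm1*, a tropomyosin (1.00), *Txlnb* and *Bves* (0.99 each), among those most like *Cox7a1* were *Ckmt2*, the mitochondrial creatine kinase, and *Hrc* (0.99 each), and those most like *Cox8b* were *Nexn*, *Crhr2* and *Cav3*, the caveolin of muscle (1.00, 0.99 and 0.99). *Cox4i2* was most like *Mpi* (0.97), *Rasip1*, a gene of endothelial cells (0.97), and *Vegfb* (0.97). Correlations of this kind mainly follow the tissue means that the arrays share, and they are given as a description.

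The other nuclear subunits were mostly higher in the striated tissues than in liver. Of the 11 other nuclear subunits with a named probe 10 were tested. All 10 were higher in heart than in liver (32.3% of all probes), with a median difference of 1.22, against 0.00 over all tested probes. In muscle 8 were higher and 1 lower (36.3% and 34.9% of all probes), with a median of 1.09, against 0.06. In brain against liver 2 were higher and 8 lower (33.4% and 45.6%). *Ndufa4*, *Cox6b1* and *Cox5a* had the largest differences between the striated tissues and the others, 1.80, 1.71 and 1.65. Of the forms known from testis, *Cox8c* was well above background on 0 of the 24 arrays and not tested, and *Cox7b2* on 0 of the 6 liver arrays, so that no difference is given for either. *Cox7b2* is still among the 10 counted above. It passed the filter only through other tissues, so its calls against liver are not independent of that filter. *Cox6b2*, the other testis form, was the one lower in muscle than in liver (-0.35, limma adjusted p = 0.0446), and it was higher in heart (1.89, adjusted p = 1.19e-09). The 3 core subunits encoded by mitochondrial DNA have no named probe here.

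Assembly factors were called in both directions. Of 24 tested, 8 were higher and 9 lower in heart than in liver, and the same counts held for muscle, near the shares over all probes (32.3% and 34.4% in heart, 36.3% and 34.9% in muscle). *Cox17*, a copper chaperone, *Cox14* and *Cmc2* had the largest differences between the striated tissues and the others, 1.97, 1.75 and 1.71. *Sco2*, which delivers copper to the core, had the smallest, -1.63, followed by *Cox18* (-0.39) and *Surf1* (-0.38). The differences of *Sco2* from liver were -3.27 in heart, -3.09 in muscle and -3.11 in brain (limma adjusted p = 1.76e-11, 3.81e-11 and 2.37e-11).

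Of 16 regulators of mitochondrial and complex IV genes, 9 were higher and 3 lower in heart than in liver (32.3% and 34.4% of all probes), and 8 and 5 in muscle (36.3% and 34.9%). *Mef2c*, a factor of muscle gene programmes, led the differences between striated and other tissues (2.78), followed by *Esrra* (1.92), the estrogen-related receptor alpha, and its coactivator *Ppargc1a* (1.83). *Mef2c* was also higher in brain than in liver by 4.99 (limma adjusted p = 3.84e-14), and its difference between heart and brain was -1.01 (adjusted p = 0.000275). *Cxxc5*, known as a repressor of *Cox4i2* transcription, was lower in heart and in muscle than in liver, with -1.27 each (adjusted p = 3.17e-06 and 2.93e-06). Its mean was also lower in brain than in liver, and there *Cox4i2* was lower too (-0.57), not higher as in heart and muscle. How *Cxxc5* relates to *Cox4i2* in these tissues was not tested. *Hif1a* averaged -0.30 between the striated and the other tissues, yet its difference between muscle and heart was -1.35 (adjusted p = 0.000142) and differed by -0.09 between heart and liver (adjusted p = 0.764). *Gabpb1* averaged -0.11.

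Between the genotypes no isoform passed in any tissue. With limma over all tested probes of a tissue, 0 of the 8 genes had an adjusted p under 0.05 and 0 an unadjusted p under 0.05 in each of the 4 tissues, each gene being read from its brightest probe. Over all probes the adjusted calls were 0% in each tissue, and the unadjusted ones 2.13% in liver, 2.62% in brain, 7.51% in heart and 2.48% in muscle. Differences of the *Rap1* KI/KI from the WT mice ran from -0.25 to 0.39 in liver, from -0.24 to 0.59 in brain, from -0.74 to 0.17 in heart and from -0.18 to 0.91 in muscle. The lowest adjusted p was 1, 1, 0.646 and 0.939 in that order. For 3 mice against 3 the intervals are wide, and the widest, for *Cox8b* in brain, reached from -0.70 to 1.87.

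**Figure D4:**
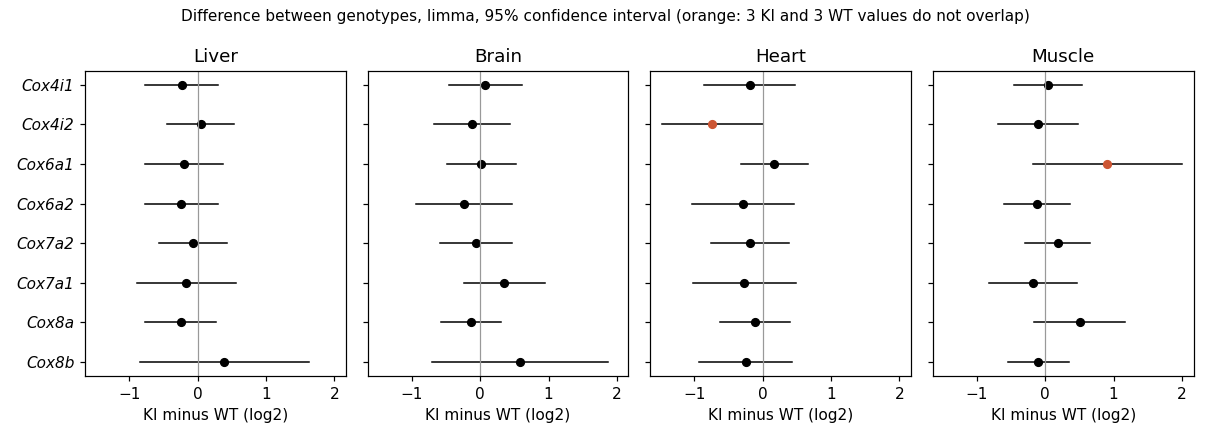
Difference of the Rap1 KI/KI from the WT mice for each gene (x axis, log2, limma estimate with its 95% confidence interval) in each tissue, orange where the 3 KI and 3 WT values do not overlap. *Cox4i2* in heart and *Cox6a1* in muscle are the pairs without overlap, at -0.74 and 0.91, and all intervals include or touch 0.

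The values of the genotypes did not overlap for 1 gene in heart and 1 in muscle, and for 0 in liver and brain. Over all tested probes the share without overlap was 5.84% in liver, 7.73% in brain, 14.7% in heart and 6.44% in muscle. *Cox4i2* in heart was at 1.88, 1.41 and 2.22 in WT1 to WT3 and at 1.39, 1.29 and 0.64 in KI1 to KI3. The difference was -0.74 (SE 0.31, 95% confidence interval -1.47 to 0.00, limma adjusted p = 0.646, exact permutation p = 0.1), and the lowest WT heart was just above the highest KI heart. Brown adipocyte genes differed between these hearts. The mean level of the 4 markers was 2.17 and 2.94 in the hearts of KI1 and KI3, where all 4 were above background. It was -2.58 in the heart of KI2 and -2.75 to -0.69 in the WT hearts. The part of fat in the level of *Cox4i2* was not tested. Without the hearts of KI1 and KI3, which leaves 1 KI heart, the difference was -0.55.

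*Cox6a1* in muscle was at 7.21, 6.44 and 7.17 in WT1 to WT3 and at 7.25, 8.86 and 7.44 in KI1 to KI3. The difference was 0.91 (SE 0.46, limma adjusted p = 0.939, exact permutation p = 0.1), and KI1 was just above WT1. KI2 carried most of it. Its level was 1.76 above the mean of the other 5 muscles (3.39-fold), and without it the difference was 0.405 (limma adjusted p = 0.997). *Cox8a* followed, at 6.77, 6.27 and 6.56 in WT1 to WT3 and at 6.73, 7.56 and 6.81 in KI1 to KI3, with KI2 at 0.94 above the mean of the others (1.91-fold). The second *Cox8a* probe was at 5.73, 5.19 and 5.51 in the WT muscles and at 5.85, 6.29 and 5.93 in the KI muscles, without overlap (0.55, SE 0.23, limma unadjusted p = 0.0497, adjusted p = 0.939, exact permutation p = 0.1).

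The muscle of KI2 also stood out in genes of fat. The mean level of 4 brown adipocyte markers was 1.36 there and -3.96 to -1.26 in the other muscles, with all 4 above background in KI2 and 2 or 3 of them elsewhere. The mean of 7 adipocyte markers was 5.39 in KI2, 4.39 in WT1 and 0.64 to 2.90 in the other 4, and the muscle of WT2, with the lowest mean, had the lowest *Cox6a1* and *Cox8a*. *Adipoq*, the adiponectin gene, was at 6.56 in KI2, 5.62 in WT1 and 1.99 in WT2. The muscle of WT1 had high adipocyte genes but a *Cox6a1* level of 7.21, between those of WT3 and KI1. The part of fat in these levels was not tested. The muscle forms were not raised in KI2, where *Cox6a2*, *Cox7a1* and *Cox8b* had the lowest of the 6 muscle levels, at 9.20, 8.51 and 8.66.

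**Figure D5:**
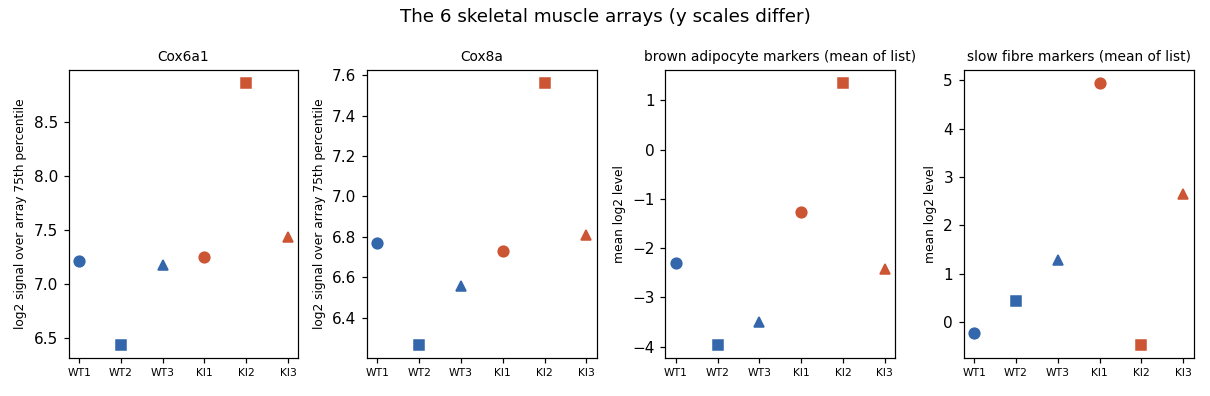
The 6 muscle arrays (x axis, mouse) with the levels of *Cox6a1* and *Cox8a* and the mean levels of the brown adipocyte and slow fibre marker lists (y axes, log2 over the 75th percentile of the array, with a scale of its own in each panel). KI2 is highest in the first 3 panels, at 8.86, 7.56 and 1.36, and KI1 is highest in slow fibre genes, at 4.95.

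Slow fibre genes varied more between the muscles than the isoforms did. The mean of 7 slow fibre markers was 4.95 in KI1, 2.65 in KI3 and -0.47 to 1.27 in the other 4, and *Myh7*, the slow myosin heavy chain, ran from -1.54 in WT2 to 6.26 in KI1. *Cox7a1* was highest in KI1 (9.31) and WT3 (9.26), and *Cox4i1* was highest in KI1 (8.96). In KI3, next after KI1 in slow fibre genes, *Cox7a1* and *Cox4i1* were at 8.63 and 8.54, each above KI2 alone. A relation of these levels to fibre type was not tested. The spread of the muscle forms was small all the same, with an SD over 6 muscles of 0.17 for *Cox6a2*, 0.32 for *Cox7a1* and 0.13 for *Cox8b*, against 0.80 for *Cox6a1*.

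For the isoform ratios, no test between the genotypes could pass. The lowest exact p of 16 tests, 4 ratios in 4 tissues, was 0.1 (adjusted p = 0.533), the smallest that 3 mice against 3 allow. The groups did not overlap in 1 of the 16 tests, and relabelling the mice gives such a separation with a probability of 0.1 in each test. It was *Cox7a1*/*Cox7a2* in brain, at -4.11, -4.16 and -4.12 in WT1 to WT3 and at -3.65, -3.69 and -3.82 in KI1 to KI3. The ratio was 0.415 higher in the KI brains (exact permutation p = 0.1, adjusted p = 0.533). The interaction of genotype and tissue passed for 0 of the 8 genes in limma (adjusted p = 1 for each, and 0 at an unadjusted p under 0.05), against 0% of all probes after adjustment and 2.93% before it.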

How the data were processed

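RNA of 24 tissue samples from 6 mice was hybridised to 1-color Agilent mouse arrays, whose features per the file headers follow a design on mm9. What the authors deposited per array are intensity values, the processed signals from Feature Extraction 12.0.3.1, with background subtracted and arrays not normalized to each other. A series-wide file, also deposited, holds score values, namely z-scores of the log10 processed signals within an array, and recomputing them gave differences of at most 0.005.

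From each log2 processed signal that of the 75th percentile of its array was subtracted. Control and flagged spots were dropped, and replicate spots averaged. Accessions were named through RefSeq (GRCm38.p6). Of 55681 probes 28331 were named, for 21368 genes, and 27350 were not. The probe with the highest mean level represents a gene. Tests were run on probes well above background in 3 or more of the 6 arrays of a tissue. Tissues were compared over 24 arrays and genotypes within a tissue with limma 3.58.1 (R 4.3.3, the data.table package in version 1.17.8, statmod 1.5.0), two-sided, with Benjamini-Hochberg adjustment over all tested probes at a threshold of 0.05. Isoform ratios had exact permutation tests. The procedures were tested on simulated data. The limma p-values measure the spread between mice within a tissue and genotype, moderated over all tested probes. Between tissues that spread is pooled over all groups, with the arrays of a mouse taken as independent. The exact tests took the mouse as the unit. Precision is limited by the number of mice.

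The 8 genes, the lists and the tests were chosen with earlier results of these data known. Besides the 8 genes, the text names up to 3 genes at each end of a complex IV list, ranked by striated minus liver-and-brain difference, the 3 genes most correlated with each isoform, and marker genes. The alternatives were quantile normalization, normexp correction (offset 50, run on the median foreground, as the files used here hold no mean), the deposited z-scores, other filters, the mouse or slide as a block, age as a covariate, each genotype alone, the mean of all probes, and each mouse or doubted array left out. The muscle arrays of KI2 and KI1 were left out, and the common subunits taken as reference, only after the data were seen. The same mice gave all tissues, which pairs them across tissues. Deviations of the same mouse in different tissues had correlations of -0.17 to 0.18 (median 0.03, 36 pairs), and the consensus correlation was 0.026. For *Cox7a1*, 1 of the genes most like it is not reported here.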

Additional observations from a re-analysis of the deposited data

Results flagged for a closer look

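Of 48 groups of 6 values that were checked for a sample far from the others, 1 stood out, where chance alone gives about 2.4. In the hearts, *Cox8a* was at 8.04 in WT3 and between 7.52 and 7.70 in the other 5 mice. The gap took up 0.668 of the range of the group. The second *Cox8a* probe was also highest in that heart, at 7.42, but close to WT1 at 7.34.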

How the results depend on the processing

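The counts of isoforms called between tissues kept their size in most settings. Between brain and liver, 6 were called here, and 3 with the authors' series table and 3 with the slide as a block. Between muscle and heart, 4 were called here, 7 with quantile normalization and 0 with KI arrays only. The mouse as a replicate block gave 8 called genes between heart and liver in place of 7 (*Cox8a*, limma adjusted p = 0.0485) and changed no other count. Between the genotypes 0 were called in each setting, the fit with the mouse as a replicate block included.

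Some differences turned their sign, and the cause was not tested. From liver to brain quantile normalization gave 0.719 for *Cox4i1*, 0.139 for *Cox6a1*, 0.363 for *Cox7a2* and 0.835 for *Cox8a*, and the z-scores of the series table gave 0.017, 0.015 and 0.075 for *Cox4i1*, *Cox6a1* and *Cox8a*. From liver to heart the z-score difference of *Cox8a* was 0.015, and from brain to muscle *Cox4i1* was at -0.017 with quantile normalization. From heart to muscle *Cox6a2* was at -0.507 with quantile normalization, -0.105 with the slide as a block, -0.002 with WT arrays only and -0.108 without the hearts of KI1 and KI3 and the muscle of KI3. In that step *Cox8b* was at -0.179 with quantile normalization and *Cox4i1* at 0.039 with KI arrays only. With each mouse left out in turn, *Cox6a1* and *Cox8a* ran from -0.166 to 0.035 and from -0.155 to 0.004 between heart and brain, and *Cox4i1* and *Cox6a2* from -0.214 to 0.057 and from -0.044 to 0.229 between muscle and heart.

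The striated shift of *Cox4i2*/*Cox4i1*, 0.493 here, was 1.1 with quantile normalization, where it still passed, and 0.348 with normexp correction, 0.685 in WT mice only and 0.3 in KI mice only (exact p = 0.0836, 0.0926 and 0.333), and 0.368 to 0.607 with each mouse left out. The other pairs passed this test in each setting that could reach the threshold. *Cox8b* in liver had intensities of only 26.7 to 113.8, and its difference between brain and liver, 3.352 here, was 2.258 with normexp correction.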
